A study of Mus musculus with 3 samples.

Results

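Replication-dependent histone genes were represented by 44 captured promoter fragments, or viewpoints, of 7176 viewpoints with a single listed position and contacts. The members were chosen by name alone, as every viewpoint with a gene symbol of the Hist1, Hist2, Hist3 or Hist4 families. Of 48 listed histone viewpoints, 2 carried the same name (Hist1h2be) and 2 had no contacts in the table (Hist1h2ah_Hist1h2bk and Hist1h3d). Of the 44 members, 34 lay on chromosome 13 (Hist1), 7 on chromosome 3 (Hist2), 2 on chromosome 11 (Hist3) and 1 on chromosome 6 (Hist4h4). In the GENCODE annotation of the mm9 genome each of the 44 fragments overlapped an exon and held the annotated start of a histone gene or, for Hist3h2a_Hist3h2bbps, of the pseudogene Hist3h2bb-ps alone, and several held a divergently transcribed pair of such genes.

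The contacts were measured by NuTi Capture-C, in which crosslinked chromatin is cut with the restriction enzyme DpnII and religated, and ligation products that carry a targeted fragment are pulled down with biotinylated probes. The cells were ter119+ erythroid cells, which are maturing red cell precursors, from the spleens of F1 hybrid mice (C57BL/6 crossed with CBA/J) made anaemic with phenylhydrazine, given in 3 doses 12 h apart before the animals were killed on day 5. All 3 libraries belonged to this 1 group, with no untreated or non-erythroid group, so the comparisons are between viewpoints and between regions and not between conditions. The table's columns name no replicate, and the letters a, b and c stand for their order in it. Contacts hold no expression levels, so the cell label was not checked against marker genes.

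Each deposited value is a number of unique ligation events per 100000 events on the viewpoint's own chromosome (cis events), from which whole events were recovered. The members with contacts held a median of 7642 cis events over the 3 libraries (range 987 to 25386), against 6474 for the 7132 other viewpoints, and 43 of them had at least 1000. Libraries b and c differed by no more than sampling noise at the chromosome 13 histone viewpoints, with a chi-square of 0.958 per 10 kb window at 2.5 kb to 1 Mb and 1.01 at 1 to 10 Mb, against 1.12 and 1.29 for a and b. Over all viewpoints with at least 1000 events the values for b and c were higher, 1.03 and 1.17, against 1.17 and 1.29 for a and b. The study describes independent 3C libraries, so each mean ± SD is over all 3 libraries (n = 3), though at the histone viewpoints the spread is mainly that between a and the others. No p-value was computed over libraries, since an exact permutation test of 3 samples cannot pass a threshold of 0.05, and the labels do not say whether the libraries came from separate animals. Library a, with 18230099 cis events against 34428035 and 34233560, carries the larger counting error.

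Replication-dependent histone genes encode the linker histone H1 and the core histones H2A, H2B, H3 and H4, from which nucleosomes are built. They lack introns, are transcribed in S phase when new chromatin is assembled, and give mRNAs that end in a stem-loop instead of a poly(A) tail. Most of them sit in clusters, and their transcription and mRNA processing factors gather at these clusters in nuclear histone locus bodies. Maturing erythroid precursors divide several times before the nucleus condenses.

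On chromosome 13 the histone viewpoints fell into 3 subclusters, defined as viewpoints less than 100 kb from the next and extended by 10 kb on either side. Subcluster 1 (chr13:21797728-21935556) held 12 members, subcluster 2 (chr13:22117233-22145057) held 2 and subcluster 3 (chr13:23612700-23866576) held 20. The stretch between subclusters 1 and 2 was 182 kb long, and that between subclusters 2 and 3 was 1.47 Mb and carries mainly vomeronasal receptor genes in the annotation. Fragments that were themselves targeted are left out of the table, so no value below counts a contact from promoter fragment to promoter fragment. Each value rests on the untargeted fragments around the promoters.

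The promoters of 3 genes, 1 from each subcluster, show the sequence behind the captured fragments. They are the 250 bases before the RefSeq start, in the GRCm38 build and so at other coordinates than the contacts. Capitals mark the letters of the TATA box (TATAAA), the CCAAT box (CCAAT) and the octamer (ATTTGCAT) where either strand matched. A match was marked at any distance from the start, so it need not be a working element. Hist1h4m lies on the plus strand at chr13:21811496-21811745, Hist1h4i on the minus strand at chr13:22041363-22041612 and Hist1h2bb on the plus strand at chr13:23746484-23746733. Hist1h4m and Hist1h2bb are shown because their region pair had the highest contact ratio between subclusters, and Hist1h4i because its viewpoint was the deepest of subcluster 2.
Hist1h4m: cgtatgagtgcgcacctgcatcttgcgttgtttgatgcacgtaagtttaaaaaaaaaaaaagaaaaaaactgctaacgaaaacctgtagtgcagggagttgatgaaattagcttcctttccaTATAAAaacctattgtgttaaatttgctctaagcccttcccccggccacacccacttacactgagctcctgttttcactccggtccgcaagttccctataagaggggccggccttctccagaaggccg
Hist1h4i: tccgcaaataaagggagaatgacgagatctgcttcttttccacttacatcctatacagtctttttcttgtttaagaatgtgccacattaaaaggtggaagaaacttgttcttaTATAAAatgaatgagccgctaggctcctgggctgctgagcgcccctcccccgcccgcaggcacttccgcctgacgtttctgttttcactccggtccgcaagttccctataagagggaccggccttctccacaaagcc
Hist1h2bb: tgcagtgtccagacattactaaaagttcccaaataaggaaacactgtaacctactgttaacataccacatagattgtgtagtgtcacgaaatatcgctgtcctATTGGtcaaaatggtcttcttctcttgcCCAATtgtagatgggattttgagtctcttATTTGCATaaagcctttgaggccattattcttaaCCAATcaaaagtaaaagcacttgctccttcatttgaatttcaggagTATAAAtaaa

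Of 59 histone genes named by the members, 52 matched a promoter in the RefSeq table. A CCAAT match lay in 41 of these 52 (78.8%), against 33.8% of all 32851 promoters in the table, and a TATAAA match in 24 (46.2%), against 12.4%. The CCAAT match was present in all 15 H2A and all 12 H2B promoters and in 3 of 12 H4 promoters. The windows of divergent H2A and H2B genes overlap, so several of these are not separate promoters. The octamer, known from H2B promoters, lay in 4 of 12 H2B and 5 of 15 H2A promoters and in none of the H1, H3 and H4 promoters, against 1.60% of all promoters. These are matches of letters anywhere in a window of fixed length, whatever their distance from the start, and were not tied to any contact value.

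Histone genes resemble each other in their coding sequence, and a read from one copy can resemble another. Of the 34 chromosome 13 viewpoints, 32 shared at least 1 identical word of 30 bases with a fragment, targeted or not, in another subcluster. A word of 70 bases was shared in this way by 28. The longest identical run between viewpoint fragments of different subclusters was 168 bases of H2B coding sequence. It was held on the plus strand by Hist1h2ak_Hist1h2bn in subcluster 1 (chr13:21846049-21846216, mm9) and by Hist1h2bc_Hist1h2ac in subcluster 3 (chr13:23776158-23776325, mm9). It is printed as an example of the likeness between captured fragments, and untargeted fragments were not searched for such runs. Runs of equal length joined Hist1h2ai_Hist1h2bl or Hist1h2ak_Hist1h2bn to Hist1h2bg_Hist1h2ae, and Hist1h2ai_Hist1h2bl to Hist1h2bc_Hist1h2ac.
Shared H2B run: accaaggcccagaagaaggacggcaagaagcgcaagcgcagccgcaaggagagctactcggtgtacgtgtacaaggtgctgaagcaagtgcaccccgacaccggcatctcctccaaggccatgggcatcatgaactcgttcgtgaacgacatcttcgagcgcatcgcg
Hist1h2bb and Hist1h4a were the only viewpoints of the 34 that shared no 30-base word with another subcluster. Values with the sharing fragments or viewpoints left out are given for the main ratios. Only words of the viewpoint fragments were searched, so likeness between untargeted fragments of different subclusters was not tested.

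Histone viewpoints contacted the other histone subclusters several times more often than other viewpoints did over the same distances. The expected count of a fragment came from the mean decay of contacts with distance over all 6718 viewpoints with at least 1000 events, scaled to each viewpoint's own events at 2.5 kb to 10 Mb. The ratio of observed to expected contacts between subclusters was 7.72, 6.76 and 6.84 in libraries a, b and c, and 6.99 in their sum. As a mean this was 7.10 ± 0.531 (SD, n = 3). All 34 viewpoints lay above 1 in each library, from 3.93 for Hist1h2bq_Hist1h2ap_Hist1h2ao to 14.4 for Hist1h3a, with a median of 7.63. The 10 neighbouring viewpoints of other genes, described below, also each lay above 1 for every subcluster in the summed libraries, from 1.18 upwards. Within the own subcluster of the histone viewpoints the ratio was 1.80 ± 0.037 (SD, n = 3), and single histone viewpoints ran from 1.09 to 3.15. Without target fragments that share a 30-base word with any histone viewpoint the summed ratio within subclusters was 1.65, against 1.81 with them. In the 1.47 Mb between subclusters 2 and 3 the ratio of single histone viewpoints was 0.325 to 0.900. Every histone viewpoint thus had a lower ratio there than in the other subclusters. The neighbouring viewpoints ran from 0.741 to 1.29 in this stretch. Each expected count is scaled to the viewpoint's own events, so an excess in some regions lowers its ratios elsewhere.

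**Figure D1:**
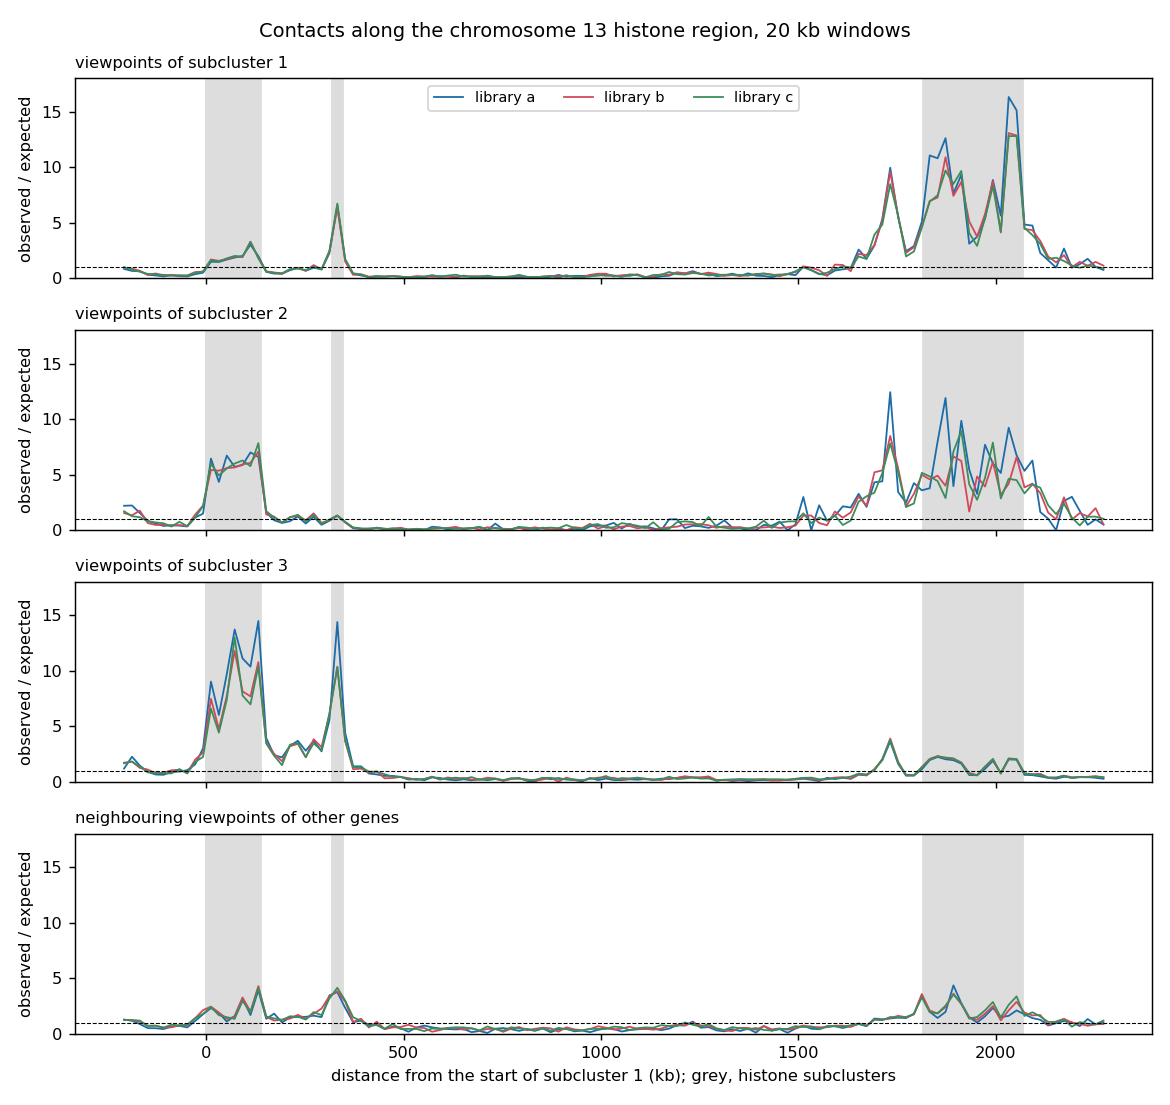
Observed over expected contacts (y axis, linear) in 20 kb windows along the chromosome 13 histone region (x axis, distance from the start of subcluster 1 in kb), 1 line per library, for the viewpoints of subclusters 1, 2 and 3 and for the neighbouring viewpoints of other genes; grey marks the subclusters and the dashed line a ratio of 1. Viewpoints of each subcluster rise over the other subclusters, fall below 1 in the stretch between subclusters 2 and 3, and rise again just before subcluster 3.

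The excess was found in each direction between the 3 subclusters. Viewpoints of subcluster 1 contacted subcluster 3 at a ratio of 8.80, 7.55 and 7.44 in libraries a, b and c, and viewpoints of subcluster 3 contacted subcluster 1 at 10.4, 8.16 and 7.98. Contacts of subcluster 2 with subcluster 3 had the lowest ratio of the 6 directions over the summed libraries, at 5.22, and contacts of subcluster 3 with subcluster 2 had the highest, at 9.60. Between the neighbouring subclusters 1 and 2 the ratios were 5.46 and 6.17. The 182 kb between subclusters 1 and 2, which holds zinc-finger and protease genes but no member, was contacted by subcluster 3 at 3.33, so part of the excess in that direction lay outside the histone subclusters.

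Library a read higher than the others for many of these viewpoints. Its ratio for the other subclusters was the highest of the 3 in 29 of 34 viewpoints, and in all 20 of subcluster 3. The part of its lower depth in this was not tested. Without library a the summed ratio between subclusters was 6.80, and without b or c it was 7.15 and 7.10.

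With all target fragments left out that held a 30-base word of any histone viewpoint, the ratio between subclusters was 6.66, with single viewpoints from 3.77 to 13.5. With all viewpoints left out that share a 70-base word across subclusters, 6 remained (Hist1h1b, Hist1h1c_b, Hist1h1d, Hist1h1e, Hist1h2bb and Hist1h4a) at 8.83. The 2 viewpoints sharing no 30-base word gave 11.5, though with a wide spread of 16.6, 11.7 and 8.54 over the libraries. Both lie in subcluster 3, as do the 6 except Hist1h1b. Subcluster 3 viewpoints had a median ratio of 9.56, against 7.13 and 5.94 for those of subclusters 1 and 2. These removals therefore also changed the mix of subclusters. The removal of viewpoints, unlike that of fragments, was added after the data had been seen.

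Taken by histone class, the linker histone viewpoints and the core histone viewpoints overlapped in range. The 4 H1 viewpoints ran from 5.98 to 10.3, the 6 H3 viewpoints from 7.10 to 14.4, the 11 H4 viewpoints from 4.85 to 12.4 and the 8 viewpoints named for both H2A and H2B genes from 3.93 to 8.73. The 2 viewpoints named for H2B alone gave 6.98 and 12.9, and the 1 named for H2A alone gave 13.8. Those named for H3 with H2A or with H2B gave 5.63 and 6.03. Names did not always match the annotated starts in the fragment. The top H3 viewpoint, Hist1h3a, holds the start of the linker histone gene Hist1h1a as well, and Hist1h2bm that of Hist1h2aj. Of the genes in their names, Hist1h2af_Hist1h3g holds the start of Hist1h2af alone and Hist1h2bj_Hist1h2ag that of Hist1h2ag alone. Hist1h2bq_Hist1h2ap_Hist1h2ao holds that of Hist1h2ap alone. No test was made between classes, because members of a class share sequence and members of a subcluster share their position. In subcluster 3 the 5 highest values, those of Hist1h3c, Hist1h2bb, Hist1h2ab, Hist1h4b and Hist1h3a, lie at its far end, as does one of its lowest, that of Hist1h1c_b at 5.98.

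**Figure D2:**
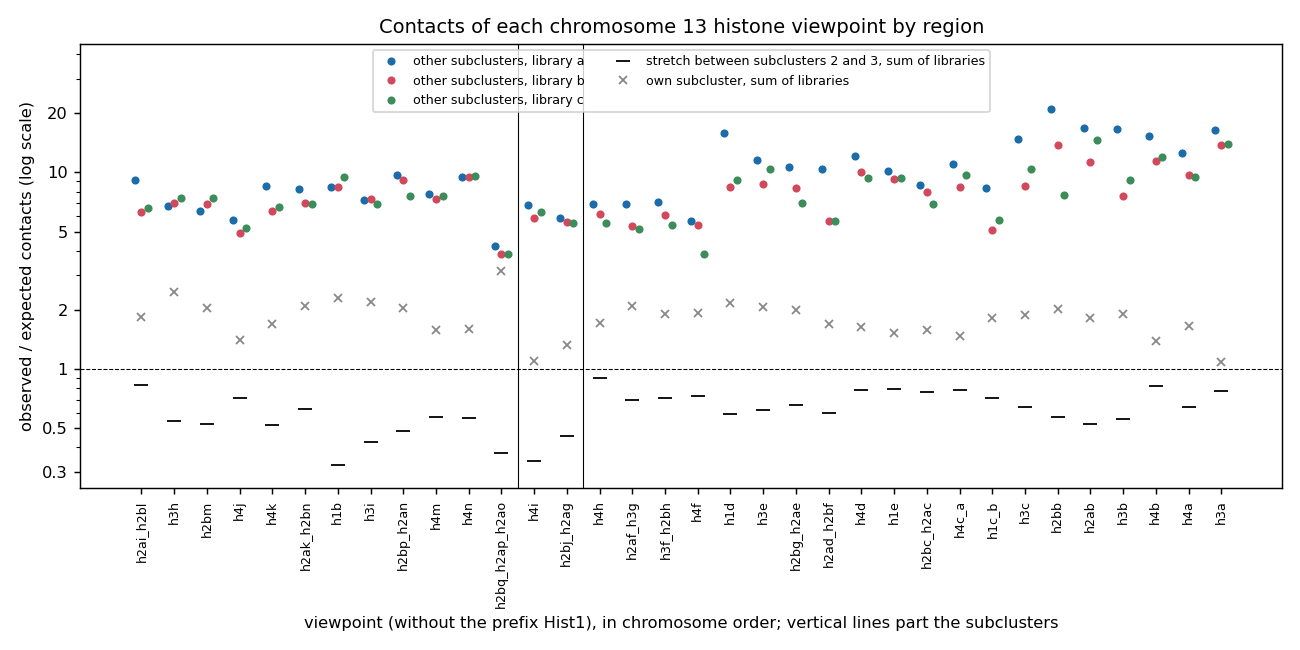
Observed over expected contacts (y axis, log scale) of the 34 chromosome 13 histone viewpoints in chromosome order (x axis), with dots for contacts in the other subclusters in libraries a, b and c, bars for the stretch between subclusters 2 and 3 and crosses for the own subcluster, both in the summed libraries. The dots of all 34 viewpoints lie above 1 and the bars lie below 1.

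Hist1h3a, an H3 gene at the far end of subcluster 3, had the highest ratio for the other subclusters. Its events in subcluster 1 were 111, 189 and 179 in libraries a, b and c, which is 4387, 4146 and 3974 per 100000 cis events and 14.8, 12.8 and 12.2 times the expected count. In subcluster 2 its ratios were 22.5, 17.9 and 20.3. In its own subcluster the same viewpoint lay near the expected count, at 1.03, 1.13 and 1.10.

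Hist1h2bq_Hist1h2ap_Hist1h2ao, the deepest member with 25386 events, had the lowest ratio for the other subclusters and the highest for its own. Its expected counts include 3590 and 2306 events at 2 adjoining fragments 23 kb away, described below with the called fragments, so its ratios elsewhere are lower than without them. Its ratios in subcluster 3 were 3.67, 3.00 and 2.84, and in its own subcluster 1 they were 2.98, 3.22 and 3.21. Without target fragments that hold a 30-base word of any histone viewpoint, its own-subcluster ratio was 1.56. Hist1h2bp_Hist1h2an, the member of subcluster 1 with the fewest events, at 1383, had ratios of 9.34, 7.53 and 7.02 in subcluster 3.

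In subcluster 3, Hist1h4d was the deepest member with 20508 events, and Hist1h2ab the shallowest with 2454. Hist1h4d contacted subcluster 1 at 9.66, 7.83 and 7.58 times the expected count and subcluster 2 at 21.3, 18.7 and 16.0. Hist1h2ab contacted subcluster 1 at 13.9, 11.7 and 14.6, on 26, 40 and 44 events. The 2 viewpoints of subcluster 2, Hist1h4i and Hist1h2bj_Hist1h2ag, held similar depths of 10723 and 10702 events and had ratios of 6.32 and 6.02 for subcluster 1 and 6.03 and 4.41 for subcluster 3.

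Pairs of members in different subclusters were compared by the contacts of one viewpoint in the 10 kb on either side of the other. Of 608 ordered pairs, 304 had an expected count of at least 5, all 304 lay above 1 in the summed libraries, and 301 did so in each library. The median ratio was 5.91. It was 5.78 for the 68 of these pairs that shared a 70-base word and 6.11 for the 220 that shared no 30-base word. Neighbouring partners lie in overlapping windows, so these pairs are not independent. Such pairs were not formed for the viewpoints of other genes nearby, whose ratios for whole subclusters also lay above 1.

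The highest pair was Hist1h4m with the window around Hist1h2bb, 1.93 Mb away. It held 79, 109 and 117 events in libraries a, b and c against 7.84 expected in all, for ratios of 44.5, 35.9 and 38.8. The longest identical run between both viewpoint fragments was 10 bases. The events were counted on the untargeted fragments around Hist1h2bb, which this run does not cover. The lowest pair was Hist1h2bq_Hist1h2ap_Hist1h2ao with the window around Hist1h4f, 1.72 Mb away, with 8, 5 and 12 events against 13.6 expected in all and ratios of 3.00, 0.90 and 2.23, so that library b lay below 1.

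Hist1h4m and Hist1h4n, which encode the same histone and share an identical run of 318 bases in their fragments, gave different profiles over subcluster 3. Both were high around Hist1h2bb, at 38.9 for Hist1h4m and 35.9 for Hist1h4n. Around Hist1h1d, Hist1h4n held 59, 85 and 89 events, with ratios of 24.8, 20.6 and 21.8. Hist1h4m held 8, 9 and 10 events there, with ratios of 3.71, 2.46 and 2.74, and the libraries of the 2 viewpoints did not overlap. Around Hist1h4f, whose window largely overlaps that of Hist1h1d and so holds many of the same events, the summed ratios were 21.4 and 3.03. These windows were picked after their values had been seen and their difference was not tested.

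**Figure D3:**
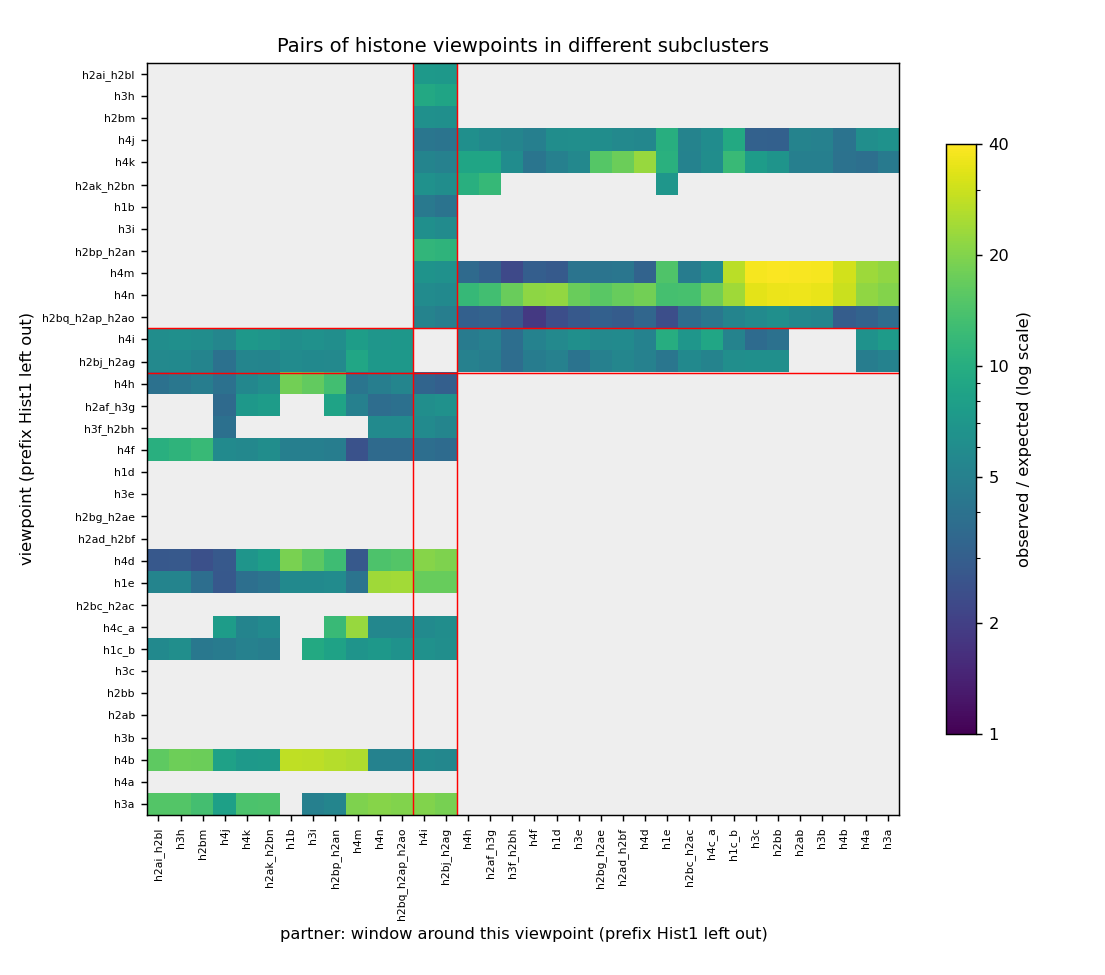
Observed over expected contacts (colour, log scale, summed libraries) of each histone viewpoint (rows) in the window of 10 kb on either side of each viewpoint in another subcluster (columns), in chromosome order with red lines between subclusters; grey marks pairs in 1 subcluster and pairs with fewer than 5 expected events. The brightest block holds Hist1h4m and Hist1h4n against Hist1h3c, Hist1h2bb, Hist1h2ab and Hist1h3b, with Hist1h4m and Hist1h2bb at 38.9.

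Subcluster 3 was not contacted evenly. Viewpoints of subcluster 1 contacted its first stretch (chr13:23620001-23720000) at 10.2, 8.20 and 8.44 times the expected count in libraries a, b and c, and its last stretch (chr13:23820001-23860000) at 13.5 in their sum, with a range of 12.8 to 15.9. In the middle (chr13:23720001-23820000) the ratios were 5.39, 5.32 and 4.88, lower than in either flank in each library. Viewpoints of subcluster 3 themselves were also lowest in the middle, with 2.07, 1.07 and 2.07 in the first, middle and last stretch over the summed libraries. The neighbouring viewpoints of other genes gave 2.46, 1.68 and 2.46, and those of subcluster 2 gave 5.93, 4.38 and 5.53, so the middle was the lowest for each set. The middle stretch holds 2 of the 20 members of subcluster 3, Hist1h2bc_Hist1h2ac and Hist1h4c_a. The limits of the stretches were set after the profile had been seen.

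Viewpoints of other genes in the same region also contacted the histone subclusters more than distance alone gave, though less than the histone viewpoints did. The 10 neighbouring viewpoints with at least 1000 events within 1 Mb of the members had a ratio of 2.40 for histone subclusters over 100 kb away, so that the histone viewpoints stood 3.35, 2.81 and 2.79 times higher in libraries a, b and c, a mean of 2.98 ± 0.316 (SD, n = 3). Over the summed libraries the factor was 2.91. It was 4.80 (7.20, 4.84 and 3.49 in the libraries) for Hist1h2bb and Hist1h4a, both of subcluster 3, the only viewpoints sharing no 30-base word across subclusters. Without the viewpoints sharing a 70-base word it was 3.68. Restricted to contacts over 500 kb the factor was 2.05. This factor was not tested over libraries. The neighbours differed among themselves and overlapped the histone viewpoints. Trim27, which encodes a nuclear ubiquitin ligase, contacted subcluster 1 at 6.76, 5.58 and 5.76 and subcluster 3 at 5.21, 5.07 and 5.54 times the expected count, within the range of the histone viewpoints. Its ratio for subcluster 2 was 9.04, and those of Zfp322a and Abt1 there were 9.12 and 8.88. The median of the 10 neighbours there was 5.09, against 5.83 for the subcluster 1 viewpoints. With the events of each set pooled, the ratios there were 3.84 and 5.46. The highest neighbour values, 11.9 for subcluster 1 and 13.3 for subcluster 2, were those of Gmnn and rested on 29 and 8 events. The zinc-finger gene Zfp184, which lies between subclusters 1 and 2, had ratios of 1.26 and 2.33 for subclusters 1 and 3 over the summed libraries.

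A test over all viewpoints called contacts in 10 kb windows at 20 kb to 5 Mb, with a negative binomial model whose spread was estimated in each distance class, Benjamini-Hochberg adjustment over all 6468624 windows tested, and the added condition that each library exceed its expected count. It called 503 of 42825 windows of histone viewpoints (1.17%), against 0.107% of all windows of all viewpoints. Of the 503 windows, 364 held no fragment that shared a 30-base word with the viewpoint. Of the 43 histone viewpoints tested, 38 had at least 1 called window (88.4%), against 37.5% of all 6718 viewpoints. The adjusted p compares windows of these libraries with the expected count, not conditions. When the dispersion ignored the top 1% of counts, 753 histone windows were called (1.76%), against 0.263% of the windows of all viewpoints. When it ignored none, 310 were called (0.724%), against 0.0402%. Under a Poisson model 2106 of the 42825 were called, against 3.27% of the windows of all viewpoints. Windows of 20 kb gave 344 histone calls, with 0.16% called over all viewpoints. Windows of 5 kb gave 625, with 0.0563% called over all viewpoints.

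In other histone subclusters, 270 of 768 windows tested (35.2%) were called, against 0.105% of the windows of all viewpoints at 1.4 to 2.1 Mb (0.075% for viewpoints of other genes) and 0.3% at 150 to 400 kb. The neighbouring viewpoints of other genes called 31 of 422 windows (7.35%) in histone subclusters over 100 kb away, in 6 of 10 viewpoints. All 34 chromosome 13 viewpoints had such a call. The called windows had a median ratio of 11.8 and ran from 4.59 to 57.9. They lay in 38 of the 43 windows that make up the subclusters. In 177 of the 270 no fragment of the window shared a 30-base word with the viewpoint, and 31 of the 34 viewpoints held a call of this kind. In the stretch between subclusters 2 and 3, 41 of 4963 windows were called (0.826%), and 40 of these 41 lay just before subcluster 3, around Abt1 and Btn1a1.

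The viewpoint with the most called windows in other subclusters was Hist1h4n, with 23 of 29, followed by Hist1h4i with 16 of 40, Hist1h2ak_Hist1h2bn with 15 of 29, Hist1h3a with 14 of 17 and Hist1h4m with 13 of 29. Hist1h3i (12), Hist1h2ai_Hist1h2bl (11), Hist1h4k (11), Hist1h2ab (10) and Hist1h2bb (9, as for Hist1h2bj_Hist1h2ag and Hist1h2bm) came next, and the median over the 34 was 7. Deeper viewpoints have more events for a call, so these counts do not rank the strength of contact. For Hist1h4n the window at chr13:23840001-23850000 held 26, 39 and 45 events against 3.11 expected, a ratio of 35.4 (negative binomial test, adjusted p = 3.26e-22), and it shared a 30-base word with the viewpoint. The highest ratio among the called windows was that of Hist1h1b, a linker histone gene of subcluster 1, at chr13:23670001-23680000 around Hist1h4d, with 13, 12 and 4 events against 0.501 expected (ratio 57.9). Its libraries differed widely, from 131 in a to 21.4 in c.

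Windows called by many viewpoints lay in each subcluster, with 32 viewpoints of other subclusters able to call a window of subcluster 2, 22 for subcluster 1 and 14 for subcluster 3. The window at chr13:22120001-22130000 in subcluster 2, which holds Hist1h2ah and Hist1h2bk, was called by 22 of 32 viewpoints and the next one, with Hist1h4i, Hist1h2ag and Hist1h2bj, by 19. In subcluster 1 the window with Hist1h1b, Hist1h3i, Hist1h2an and Hist1h2bp (chr13:21870001-21880000) was called by 19 of 22. In subcluster 3 the window with Hist1h1c, Hist1h3c and Hist1h2bb (chr13:23830001-23840000) was called by 10 of 14. Hist1h2ah and Hist1h2bk share the promoter fragment that had no contacts as a viewpoint, so this window was seen from the other members only.

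**Figure D4:**
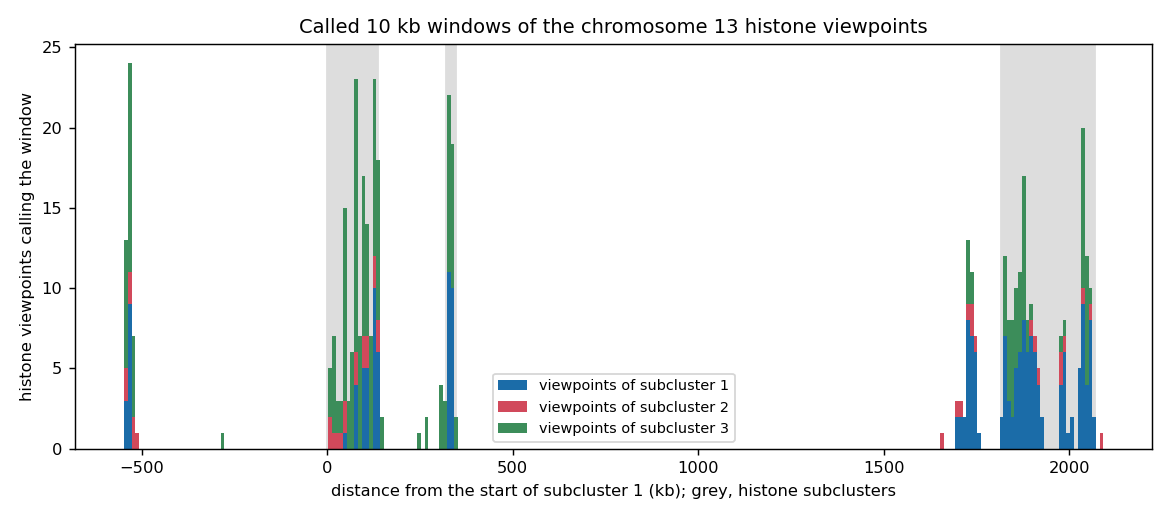
Number of chromosome 13 histone viewpoints that called each 10 kb window (y axis), stacked by the viewpoints' subcluster, along the region (x axis, distance from the start of subcluster 1 in kb); grey marks the subclusters. Calls gather in the subclusters, near Trim27 ahead of subcluster 1 and just before subcluster 3, and 1 call lies elsewhere between subclusters 2 and 3.

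Outside the subclusters the chromosome 13 histone viewpoints called 129 of 32530 windows (0.397%), against 0.241% of such windows for the neighbouring viewpoints (23 of 9530), and 45 of the 129 lay within 40 kb at and before Trim27. The window at chr13:21260001-21270000 there was called by 24 viewpoints, with ratios of 5.14 to 16.6, and 1 of the 24 viewpoints shared a 30-base word with it. The 40 calls just before subcluster 3, by 15 viewpoints, lay between chr13:23490001 and 23560000 around Abt1, C230035I16Rik and Btn1a1, just before subcluster 3. There the window at chr13:23520001-23540000, 20 kb long, was contacted by subcluster 1 viewpoints at 9.97, 9.61 and 8.48 times the expected count. Beyond subcluster 3, 19 calls by 14 viewpoints lay at BC005537, Acot13 and Tdp2 and 7 calls by 6 viewpoints in Lrrc16a. Trim27, Abt1, Btn1a1, BC005537 and Acot13_Tdp2 are captured promoters too, and their own fragments do not enter these counts.

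At the resolution of single restriction fragments, within 1 Mb, the same kind of test over 28839731 pairs called 21 fragments of 9 histone viewpoints, against 0.00086% of pairs called over all viewpoints. The share was 0.0112% of the 186843 pairs of histone viewpoints. A called fragment was held by 20.9% of the 43 histone viewpoints and by 2.31% of all viewpoints. Of the 21, 12 lay in the viewpoint's own subcluster and 9 in another, the latter between subclusters 1 and 2, since subcluster 3 lies beyond the 1 Mb limit of this test from both. They lay 23.0 to 291 kb from the viewpoint, and 2 shared a 30-base word with it. The count depended on the libraries and on the model. It was 13, 10 and 8 with library a, b or c left out. When the dispersion ignored the top 1% of counts it was 272 (0.146% of histone pairs), against 0.013% of the pairs of all viewpoints. With the top 0.1% ignored it was 118 (0.0632%), against 0.0041%. Under a Poisson model it was 2800 of the 186843, against 0.611% of the pairs of all viewpoints.

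Hist1h2bj_Hist1h2ag had 4 called fragments in subcluster 1 and Hist1h4i had 3, and 3 of these fragments were common to both viewpoints. They were chr13:21843562-21844288, between Hist1h4k and Hist1h2ak, and the adjoining chr13:21876169-21877578 and chr13:21877579-21878563, between Hist1h3i and Hist1h2an. Hist1h2ad_Hist1h2bf had 4 called fragments inside subcluster 3, 167 to 180 kb away. The largest of these held 9, 14 and 7 events at Hist1h2bb, 28.6 times the expected count. Hist1h3h had 3 in its own subcluster, 2 of them overlapping Hist1h2br, and Hist1h1b had 2 at Hist1h2bq and Hist1h2ao. Hist1h2ak_Hist1h2bn and Hist1h2bp_Hist1h2an had 1 each, both at Hist1h2ag.

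The largest counts were those of Hist1h2bq_Hist1h2ap_Hist1h2ao at 2 adjoining fragments 23 kb away. They held 3590 and 2306 events, 143 and 92.1 times the expected count, with 724, 1424 and 1442 and with 548, 908 and 850 in the libraries. These fragments (chr13:21901758-21902125 and chr13:21902126-21902522) overlap Hist1h2bq and Hist1h2ao, 2 of the genes in the viewpoint's own name, whereas the viewpoint fragment itself holds Hist1h2ap in the annotation. The second of them shared a 30-base word with the viewpoint. Whether reads of these gene copies were placed at the wrong copy was not tested. Hist1h4f had 1 called fragment, at Hist1h4a, which also shared a 30-base word with it.

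The 6 Hist2 viewpoints with at least 1000 events on chromosome 3 showed fewer called contacts. They called 6 of 5976 windows (0.1004%), near the background of 0.107%. Hist2h2bb had 4 of the 6 and Hist2h3b 2. Both called the window at chr3:96040001-96050000, which holds Hist2h3c2, Hist2h2aa2, Hist2h2aa1 and Hist2h3c1, with 38, 53 and 56 events for Hist2h2bb and 33, 52 and 60 for Hist2h3b, at 3.75 and 5.10 times the expected count. That window shared a 30-base word with Hist2h3b. Hist2h2ab (7013 events), Hist2h2ac_Hist2h2be (6937), Hist2h2aa2_Hist2h2aa1 (10951) and Hist2h4 (8223) had no called window, and Hist2h3c1_Hist2h3c2, with 987 events, was not tested.

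On chromosome 11, Hist3h2ba had 19540 events and no called window. Hist3h2a_Hist3h2bbps had 6573 events and 1 called window, 23.1 kb away at Butr1 and Rnf187, with 71, 83 and 107 events and 3.42 times the expected count. The Hist3 viewpoints together called 1 of 1992 windows (0.0502%), against 0.107% over all viewpoints. Hist4h4, a lone H4 gene on chromosome 6, had 8466 events and 7 called windows of 993 (0.705%), against the same 0.107%. This is a single viewpoint, and 37.5% of all viewpoints had a called window. The highest lay 1.88 Mb away at Cdkn1b, which encodes a cell cycle inhibitor, with 3, 11 and 14 events and ratios of 10.3, 15.4 and 20.4. Library a was the lowest there, and also in the called windows 1.61 Mb and 278 kb away, where its ratios were 2.95 and 1.90. Contacts between chromosomes, such as those between Hist1 and Hist2, were not analysed here.

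By distance, histone viewpoints held less of their cis events far away. The median share beyond 10 Mb was 21.5% over the 43 members (19.4, 22.3 and 21.8% in the libraries) and 34.3% over the 6675 other viewpoints. At 10 to 100 kb the medians were 23.8% and 15.9%. The 10 neighbouring viewpoints lay between these groups, at 26.2% beyond 10 Mb and 19.5% at 10 to 100 kb. Subcluster 1 held 25.5%, subcluster 3 24.2% and subcluster 2, which is 27.8 kb long, 11.8% at 10 to 100 kb. Subcluster 2 had instead the highest median share of these groups at 100 kb to 1 Mb, 32.2%, the range in which subcluster 1 lies. Beyond 10 Mb, Hist4h4 held 39.8% and the 2 Hist3 viewpoints a median of 30.4%. These shares describe groups of unequal size and were not tested.

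**Figure D5:**
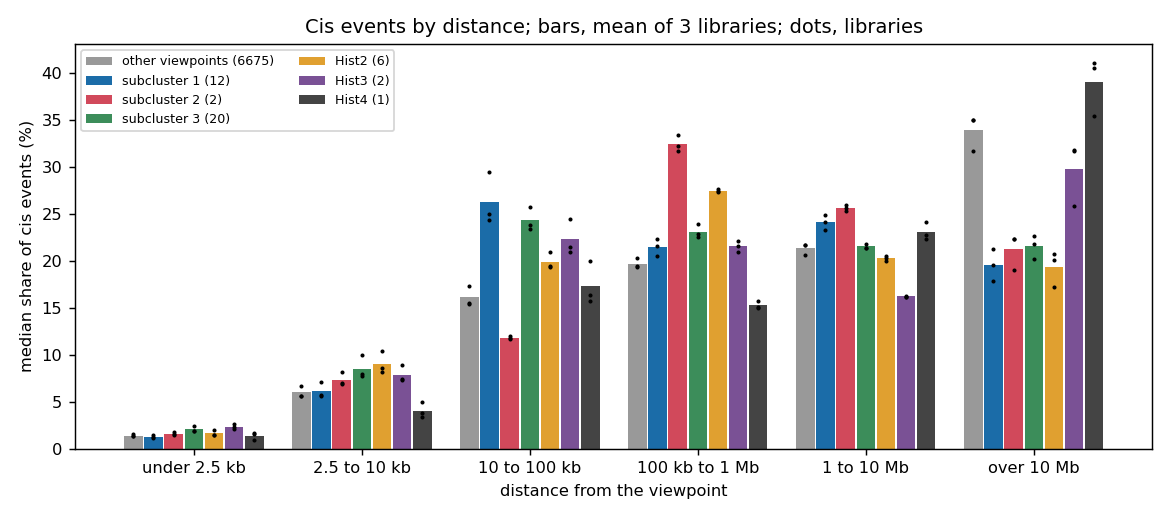
Median share of cis events (y axis, percent) in 6 distance classes (x axis) for the other viewpoints and for the histone viewpoints by cluster, with the number of viewpoints in parentheses; bars are the mean of the 3 libraries and dots the libraries. Beyond 10 Mb the Hist1, Hist2 and Hist3 groups lie below the other viewpoints and Hist4 lies above them. Subcluster 2 is the highest group at 100 kb to 1 Mb.

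Promoters of related genes were read for comparison from lists fixed by function. Replication-independent histone genes, whose products replace histones outside S phase, had 6 viewpoints tested and 17 of 5730 windows called (0.297%) in 3 of them. Their deepest viewpoint was H3f3a, with 24326 events. Genes for histone transcription and histone mRNA processing, such as Npat, the activator of histone transcription, had 11 viewpoints tested and 22 of 10745 windows called (0.205%) in 7 of them. Npat_Atm was the deepest of these with 51061 events. Over all viewpoints 0.107% of windows were called and 37.5% of viewpoints had a call, so both lists lay above that window share. Over all 43 histone viewpoints 1.17% of windows were called, and that share rested on chromosome 13, which held 489 of the 503 calls.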

How the data were processed

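The 3 libraries of ter119+ erythroid cells were used, in 1 group. The table was made by the authors with Trim Galore, Bowtie, CCseqBasicM and CaptureCompare on the mm9 genome, with the versions of Trim Galore and Bowtie not given in the sources used here. The deposited values are a signal, the unique ligation events per 100000 cis events of each viewpoint and library. All of them came out as whole events, within 0.01, once each viewpoint's smallest step was taken as 1 event, and those recovered events were analysed. Of the contacts, 170 lay off the DpnII fragment map and were left out. No count tool for gene tables was used, since the rows are pairs of a viewpoint and a fragment.

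The expected count used 100 distance bins over viewpoints with at least 1000 events. The window test had 50 distance bins and left the highest 0.1% of standardised counts out of its dispersion, and the fragment test had 50 bins and left out none. Calls needed an adjusted p under 0.05 (Benjamini-Hochberg) and an excess in each library. Both tests were tried on simulated data without the condition on each library. The simulated fragment test left out the highest 0.1%, unlike the fragment test reported, which was not itself simulated. Simulated contacts were placed only among pairs with the highest expected counts. Python 3.11.15, numpy 2.4.6, pandas 2.3.3 and scipy 1.17.1 were used.

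The members and lists were chosen with earlier results of these data known. Named members were all those outside chromosome 13, the deepest and shallowest of each subcluster, those with called fragments, the 10 with most called windows in other subclusters (ties by name), and the highest and lowest pair. Hist1h3c, Hist1h4b, Hist1h1c_b and other members outside this rule were named after their values had been seen. No probe sequences of histone viewpoints were at hand. Promoters were from RefSeq (GRCm38), and genes from GENCODE vM1.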

Additional observations from a re-analysis of the deposited data

How the results depend on the processing

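No paired analysis was possible because there is 1 group and the columns carry no replicate number. No result changed direction. The ratio between subclusters (6.99) was 6.80 to 7.15 with 1 library left out. It was 8.90 with the expected count scaled to all cis events, 6.25 with a subcluster gap of 250 kb, 7.62 with no margin and 8.31 with viewpoints weighted equally. Left without viewpoints that share a 30-base or a 70-base word across subclusters, settings chosen after seeing the data, it was 11.5 and 8.83. These settings kept 2 and 6 viewpoints, most of them in subcluster 3. The ratio within subclusters (1.81) was 1.80 to 1.83 with 1 library left out, 2.28 with all cis events, 1.65 with the expected count from chromosome 13, 1.68 with the 250 kb gap, 1.86 with no margin, 1.65 without fragments that share a 30-base word with any histone viewpoint and 1.73 with chromosome X and a deep stretch of chromosome 9 left out of the expected count, the last chosen after seeing the data. Without viewpoints sharing 30-base and 70-base words it was 1.85 and 1.77. The factor over neighbouring viewpoints (2.91) was 2.80 to 2.99 with 1 library left out, 3.53 with no margin, 2.05 over 500 kb, and 4.80 and 3.68 without the viewpoints sharing 30-base and 70-base words.

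Called fragments of histone viewpoints (21) numbered 272 and 118 when the dispersion ignored the top 1% and 0.1% of counts, 2800 under a Poisson model and 8 to 13 with 1 library left out (13 without a, 10 without b, 8 without c). Called windows (503) numbered 310 with no counts left out, 2106 under a Poisson model and 368 to 425 with 1 library left out. The causes of these shifts were not tested. The called fragments over 100 kb away had expected counts of 0.166 to 2.16 events.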
